A study of Mus musculus with 20 samples.

Results

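Mesenteric white fat was compared between mice given a nori extract in a high fat diet (HFD+Ex) and mice on the high fat diet alone (HFD), with 1 array for each diet, 2 of the 20 arrays of the study. Each array held RNA pooled from 7 male C57BL/6J mice that started their diet at 5 weeks of age and kept to it for 13 weeks. The HFD+Ex diet had 60% of its energy as fat and 2% by weight of an extract of nori, a red alga eaten as a food. The HFD diet had the same fat content and no supplement. The mesenteric fat of 2 further groups is given beside them: the same high fat diet plus porphyran at 2% by weight (HFD+PP), a sulfated polysaccharide of nori, and a control diet (CD) with 10% of its energy as fat. The study also covered liver, brown fat, ileum and colon, and its title is about porphyran of discolored nori and metabolic syndrome. With 1 pool per diet there is no replicate, so differences are given without a test, p-value or standard error. The spread between mice cannot be seen in a pool.

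Mesenteric fat lies in the sheet of tissue that carries the vessels and lymph nodes of the gut, next to the pancreas, so a dissected piece can hold parts of those organs. When fat cells enlarge on a high fat diet, macrophages gather around dying fat cells, take up their lipid and switch on a lysosomal programme marked by the receptor Trem2. These cells are known as lipid-associated macrophages. A different set of macrophages lives in lean fat, in the lining of the abdomen and in lymph nodes.

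A level below is the log2 signal of a gene's probe minus the 75th percentile of that array, so 0 is as bright as the probe at that percentile. Levels of different genes rest on different probes and are not set against each other. Of 21154 genes on the array with a symbol, 16643 were well above background on at least 1 of both arrays and were measured. A gene is said to have risen or fallen only when it differed by at least 2-fold. A gene dimmer than that on 1 array has only a lower bound for its change, written "at least". The spread of repeated spots within each array, combined over both arrays, came to an SD of 0.0859 log2 for a difference. It covers only probes well above background. It leaves out all variation between arrays, such as slide and scan, and all variation between animals. The share of spots well above background was 66.2% on HFD+Ex and 62.0% on HFD. HFD+Ex and HFD+PP lay on one slide and HFD and CD on another, so slide and supplement cannot be told apart between HFD+Ex and HFD.

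Fat cell markers were high on all 4 arrays, as the tissue label says. Adiponectin (Adipoq), a hormone that fat cells secrete, had levels of 8.01 on HFD+Ex, 8.11 on HFD+PP, 7.95 on HFD and 7.47 on CD. The fatty acid carrier Fabp4 stood at 8.70 on HFD+Ex, 8.85 on HFD+PP, 8.70 on HFD and 8.63 on CD. Plin1, which coats the lipid droplet of fat cells, stood at 6.03 on HFD+Ex, 5.99 on HFD+PP, 5.92 on HFD and 5.59 on CD. These 3 markers differed by at most 0.10 log2 between HFD+Ex and HFD.

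Over all measured genes, 605 rose (3.64%) and 628 fell (3.77%) on HFD+Ex relative to HFD, and the median difference was −0.04 log2. Genes of pancreas, lymph node and gut were then set apart: 277 through lists of their markers, and further genes through levels in ileum and colon at least 2 log2 above brown fat, which used no mesenteric array. Those 2198 genes held 275 that rose and 280 that fell. Among the 14445 genes kept, 330 rose (2.28%) and 348 fell (2.41%), with a median of −0.04 log2.

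Exocrine pancreas genes were higher on HFD+Ex than on HFD. Of 50 measured exocrine pancreas genes, 42 rose and 1 fell, with a median of 4.65 log2. Reg2, a secreted lectin of acinar cells, had levels of 3.97 on HFD+Ex, 7.61 on HFD+PP, −2.86 on HFD and 5.53 on CD, and Gp2, a protein of the enzyme granules, of 2.67 on HFD+Ex, 4.87 on HFD+PP, −2.62 on HFD and 4.27 on CD. The summed linear signal of the list was 1234 on HFD+Ex, 3969 on HFD+PP, 63.1 on HFD and 2450 on CD, so the HFD array was the low one of the 4. On HFD, 43 of the 53 pancreas genes on the array were still well above background. The 1 pancreas gene that fell was Dnase1, a secreted nuclease, at −2.60 log2, named here after its value was seen. Islet genes, the hormone-making part of the pancreas, were divided: of 18 measured, 2 rose and 3 fell (median −0.50). Their summed signal was 9.46 on HFD+Ex, 12.5 on HFD+PP, 12.8 on HFD and 20.2 on CD. The 2 that rose were the insulin genes, with HFD as the lowest array. Ins1 rose at least 7.05-fold, at −2.75 on HFD+Ex, 0.76 on HFD+PP and 2.10 on CD, and was not well above background on HFD. Ins2 rose 2.18-fold, at −1.70 on HFD+Ex, 1.43 on HFD+PP, −2.82 on HFD and 2.76 on CD. Slc2a2, Slc30a8 and Pyy fell, Slc30a8 as a bound. Slc2a2 had levels of −5.29 on HFD+Ex, −3.50 on HFD+PP, −3.01 on HFD and −5.03 on CD. For Slc2a2, as for the summed intestinal epithelium genes given below, HFD and HFD+PP were the high arrays, and the part of gut tissue was not tested.

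Genes of B cells rose with those of pancreas. Of the 30 B cell and plasma cell genes, 24 rose and 0 fell (median 2.56), and their summed signal was 172 on HFD+Ex, 189 on HFD+PP, 62.4 on HFD and 331 on CD. Cr2, the complement receptor of mature and follicular B cells, had levels of 2.90 on HFD+Ex, 2.90 on HFD+PP, −0.28 on HFD and 3.999 on CD and rose 9.04-fold. Among 41 genes of T cells and NK cells, 29 rose and 0 fell (median 1.70), among them Ccr7, which guides lymphocytes into lymph nodes, at 3.82 on HFD+Ex, 3.98 on HFD+PP, 1.31 on HFD and 5.30 on CD. Of 16 genes of lymph node stroma and vessels, 9 rose and 1 fell (median 1.03): Glycam1 and Madcam1, adhesion molecules of the vessels through which lymphocytes enter, rose 6.18-fold and 6.33-fold. Ubd, a ubiquitin-like protein, was the member that fell, 3.96-fold, at 3.36 on HFD+Ex, 3.21 on HFD+PP, 5.35 on HFD and 2.35 on CD. The summed signal of this list, with Ubd in it, was 78.2 on HFD+Ex, 79.0 on HFD+PP, 87.7 on HFD and 90.5 on CD. HFD was thus not the low array in that sum.

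Genes of gut epithelium went the other way. Of 62 intestinal epithelium genes, 0 rose and 54 fell (median −2.83), and their summed signal was 43.1 on HFD+Ex, 165 on HFD+PP, 170 on HFD and 48.9 on CD. Apoa4, an apolipoprotein of fat-absorbing enterocytes, had levels of −3.34 on HFD+Ex, −0.77 on HFD+PP, 2.13 on HFD and −1.91 on CD and fell 44.4-fold. Of 15 Paneth cell genes, 12 fell (median −3.20). Defa40, one of the Paneth cell defensins, had levels of −2.97 on HFD+Ex, 3.87 on HFD+PP, 0.62 on HFD and −2.87 on CD, so HFD+PP was the high array there. Defensin genes are close copies of each other and their probes may cross-hybridise. Of 18 goblet and enteroendocrine cell genes, 11 fell, led by the goblet cell genes Clca1 (28.4-fold) and Tff3 (28.02-fold). The 28 genes of gut muscle and enteric nerve held 0 that rose and 0 that fell (median −0.34). The plot of lists from other tissues shows these values gene by gene.

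**Figure D1:**
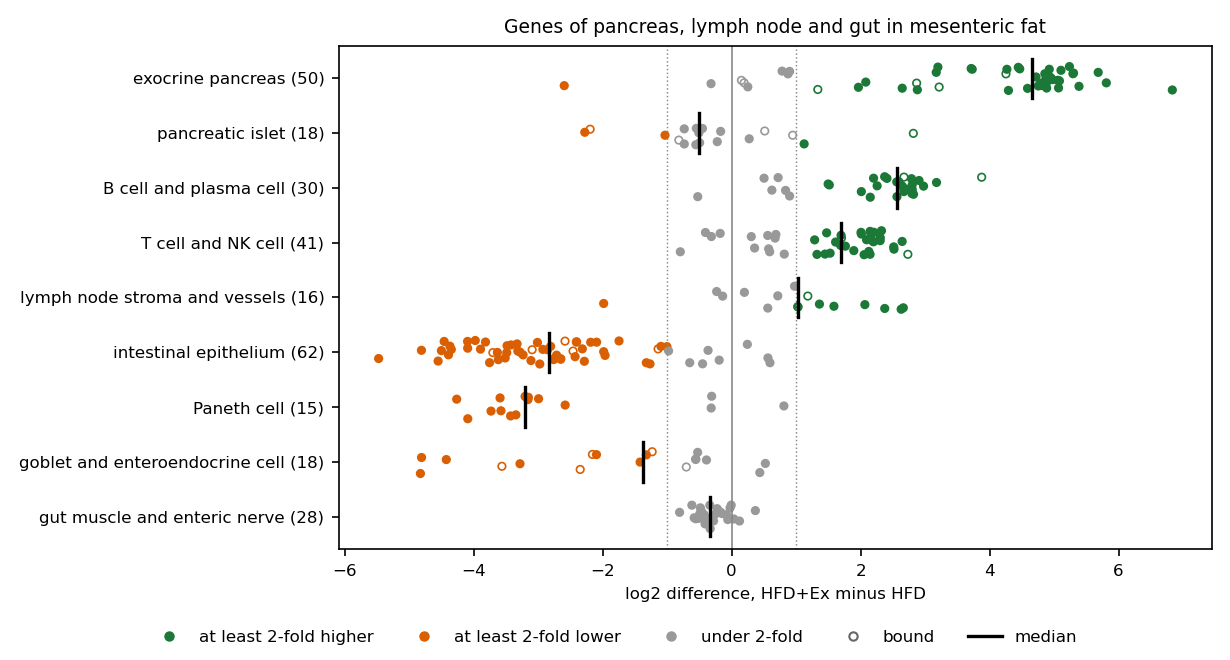
Log2 difference, HFD+Ex minus HFD, for each measured gene (point) of 9 lists of pancreas, lymph node and gut, with the number of measured genes in brackets. Black lines are medians, open points are bounds and dotted lines mark 2-fold; exocrine pancreas (median 4.65) and B cell genes (2.56) lie to the right and intestinal epithelium (−2.83) to the left.

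Genes of lipid-associated macrophages were mostly lower with the extract. Of 37 measured genes of lipid-associated macrophages, 20 fell and 2 rose, with a median of −1.21 log2, and of the 31 that were kept, 17 fell and 2 rose (median −1.28). Trem2, the lipid-sensing receptor that marks these cells, had levels of 2.47 on HFD+Ex, 2.31 on HFD+PP, 5.35 on HFD and 0.89 on CD and fell 7.35-fold. Gpnmb, a membrane glycoprotein of lysosome-rich macrophages, had levels of 2.25 on HFD+Ex, 1.94 on HFD+PP, 5.19 on HFD and 0.55 on CD and fell 7.71-fold. Mmp12, the macrophage elastase, had levels of −1.03 on HFD+Ex, −1.36 on HFD+PP, 2.00 on HFD and −3.85 on CD and fell 8.18-fold. For each of these 3 genes HFD was the highest array, CD the lowest, and HFD+Ex and HFD+PP lay close together between them. CD shared the slide of HFD. Genes of lymph node and gut moved between the same arrays, and their part in these values was not tested.

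The proton pump subunit gene Atp6v0d2, which acidifies the lysosome in macrophages and osteoclasts, had levels of −0.28 on HFD+Ex, −0.55 on HFD+PP, 2.43 on HFD and −1.40 on CD and fell 6.55-fold. Dcstamp, needed for the fusion of such cells, had levels of −1.63 on HFD+Ex, −1.71 on HFD+PP, 0.40 on HFD and −3.41 on CD and fell 4.06-fold. Slc37a2, a sugar phosphate transporter of macrophages, fell 4.42-fold. Itgax, which encodes the integrin CD11c, had levels of 2.36 on HFD+Ex, 2.20 on HFD+PP, 4.36 on HFD and 2.19 on CD, so that for this gene HFD+Ex was within 0.18 log2 of CD. Lgals3, the lectin galectin-3 and one of the genes set apart for its level in gut, fell 2.67-fold, and osteopontin (Spp1), a secreted matrix protein, fell 2.92-fold at −2.22 on HFD+Ex, −3.50 on HFD+PP, −0.67 on HFD and −4.45 on CD. In bulk tissue, fewer cells of a type and less RNA per cell cannot be told apart.

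Members of the list did not all move alike. Clec4n, the fungal sugar receptor dectin-2, rose 2.32-fold at 0.75 on HFD+Ex, 0.70 on HFD+PP, −0.47 on HFD and 1.92 on CD, and Mreg, melanoregulin, rose 3.68-fold at −1.35 on HFD+Ex, −1.24 on HFD+PP, −3.23 on HFD and 0.10 on CD; both are named after their values were seen. In these genes HFD was the lowest array and CD the highest, the reverse of Trem2. The lipid-handling members that fat cells also express moved less: lipoprotein lipase (Lpl) was at −0.07 log2 and the fatty acid transporter Cd36 at −0.50. The 15 members under 2-fold ran from −0.90 for the tetraspanin Cd9 to 0.91 for the proton channel Hvcn1, Hvcn1 being named after its value was seen.

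**Figure D2:**
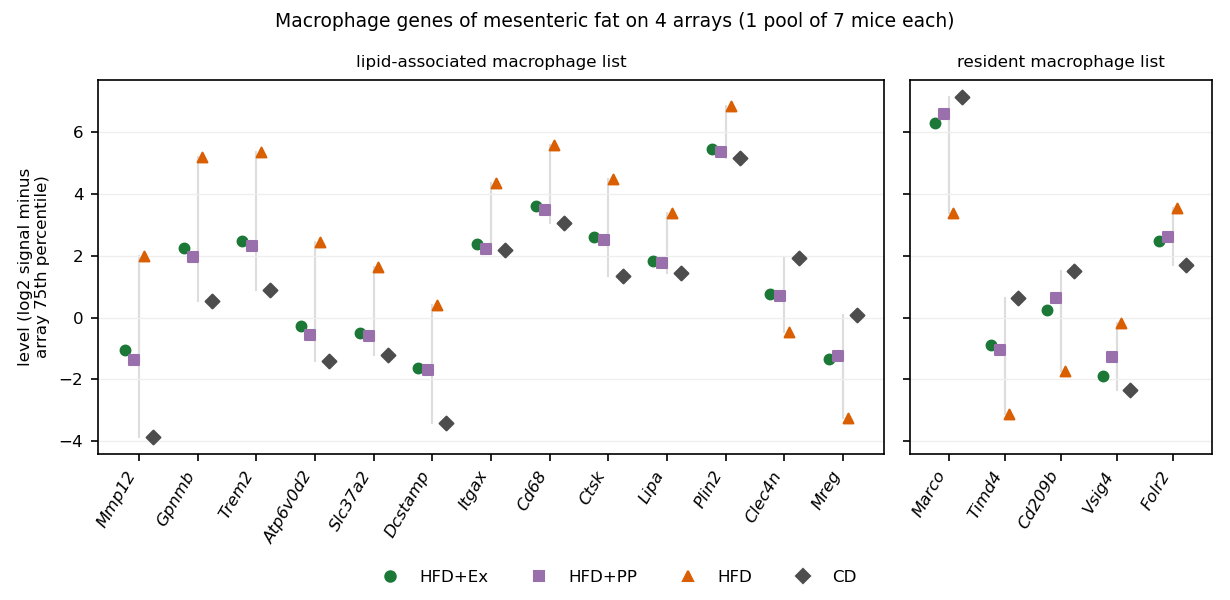
Levels (log2 signal minus the 75th percentile of the array) of macrophage genes on the HFD+Ex, HFD+PP, HFD and CD arrays, 1 array each, so there is no error bar; grey lines span the 4 arrays. HFD is the highest array for Mmp12 to Plin2 and for Vsig4 and Folr2, and the lowest for Clec4n, Mreg, Marco, Timd4 and Cd209b.

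Promoters of the 3 members with the largest falls are given, picked by those falls, with that of Il6 for contrast, since it rose. Each is the 250 bases before an annotated start on the gene's strand, from RefSeq on build GRCm38.p6. Mmp12 has 2 annotated starts, at chr9:7344147-7344396 and chr9:7347124-7347373, Gpnmb is at chr6:49036268-49036517, Trem2 at chr17:48346151-48346400 and Il6 at chr5:30012864-30013113, all on the plus strand. Capitals mark matches on either strand to 4 motifs: CACGTG, the E-box letters of lysosomal gene promoters; TGANTCA, the letters bound by AP-1; GAGGAA, a core of sites for the macrophage factor PU.1; and a site for NF-kB, read here as GGG and TTTCC with 2 bases between.
Mmp12, upstream start: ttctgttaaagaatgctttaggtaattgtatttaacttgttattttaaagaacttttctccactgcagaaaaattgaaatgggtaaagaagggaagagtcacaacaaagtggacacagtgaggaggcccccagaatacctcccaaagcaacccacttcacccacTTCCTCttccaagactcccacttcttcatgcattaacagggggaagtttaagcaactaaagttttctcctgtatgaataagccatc
Mmp12, downstream start: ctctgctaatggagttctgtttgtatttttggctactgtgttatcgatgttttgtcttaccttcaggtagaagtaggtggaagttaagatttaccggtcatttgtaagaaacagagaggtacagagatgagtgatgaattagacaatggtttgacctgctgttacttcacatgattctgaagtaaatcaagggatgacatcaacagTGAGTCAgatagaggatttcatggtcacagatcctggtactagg
Gpnmb: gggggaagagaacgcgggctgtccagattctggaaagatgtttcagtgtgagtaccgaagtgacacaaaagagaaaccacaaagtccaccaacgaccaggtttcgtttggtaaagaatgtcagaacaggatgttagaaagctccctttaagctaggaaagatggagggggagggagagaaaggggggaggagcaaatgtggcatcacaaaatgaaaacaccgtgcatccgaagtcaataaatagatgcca
Trem2: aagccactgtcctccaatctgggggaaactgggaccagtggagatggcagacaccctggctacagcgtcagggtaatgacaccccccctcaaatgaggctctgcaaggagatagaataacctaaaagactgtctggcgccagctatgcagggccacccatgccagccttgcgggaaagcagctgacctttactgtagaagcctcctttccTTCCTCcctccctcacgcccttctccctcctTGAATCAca
Il6: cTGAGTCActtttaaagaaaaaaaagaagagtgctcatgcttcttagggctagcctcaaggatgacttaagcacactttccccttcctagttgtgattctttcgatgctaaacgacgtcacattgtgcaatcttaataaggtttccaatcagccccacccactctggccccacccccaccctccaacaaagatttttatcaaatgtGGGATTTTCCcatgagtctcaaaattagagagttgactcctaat

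The Trem2 window held GAGGAA on the other strand, 40 to 35 bases before the start, and TGANTCA 9 to 3 bases before it. The upstream start of Mmp12 had GAGGAA on the other strand and the downstream start had TGANTCA, while none of the 4 motifs was found in the Gpnmb window. In the Il6 window TGANTCA lay 249 to 243 bases and the NF-kB letters 44 to 35 bases before the start. A promoter was in the table for 17 of the 20 lipid-associated macrophage genes that fell, with 19 starts. GAGGAA was found in 57.9% of these, against 23.3% of all 32851 promoters, and TGANTCA in 31.6%, against 6.75%. CACGTG was found in 5.26%, against 6.02%, and the NF-kB letters in 0 of 19, against 1.41%. All measured members of the list, fallen or not, had 35 starts in the table. GAGGAA was found in 40% of those, TGANTCA in 20%, CACGTG in 8.57% and the NF-kB letters in 2.86%. These are letter matches in a short window and were not tested.

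General macrophage markers moved the same way by smaller amounts. Of 29 measured, 0 rose and 11 fell, with a median of −0.88 log2. Cd68 and Tyrobp, both of which fell, are also in the lipid-associated macrophage list. Cd68, a lysosomal glycoprotein of macrophages, had levels of 3.61 on HFD+Ex, 3.48 on HFD+PP, 5.58 on HFD and 3.05 on CD and fell 3.9-fold. Adgre1, an adhesion receptor used to mark mouse macrophages, had levels of 2.38 on HFD+Ex, 2.40 on HFD+PP, 3.97 on HFD and 1.61 on CD and fell 3.01-fold. Tyrobp, the adaptor that passes on the Trem2 signal, fell 2.64-fold, the surface protein gene Ms4a7 2.52-fold and C1qb, a chain of the first complement component, 2.33-fold. Itgad, which encodes the integrin CD11d of tissue macrophages, had the largest measured fall among kept genes after Myh15, 11.55-fold, with levels of −1.64 on HFD+Ex, −2.27 on HFD+PP, 1.89 on HFD and −3.27 on CD.

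Genes of resident macrophages were divided. Of 29 measured, 3 rose and 2 fell, with a median of −0.07. Marco, a scavenger receptor for bacteria, had levels of 6.29 on HFD+Ex, 6.56 on HFD+PP, 3.39 on HFD and 7.13 on CD and rose 7.47-fold. Timd4, a receptor for dying cells, had levels of −0.89 on HFD+Ex, −1.03 on HFD+PP, −3.12 on HFD and 0.62 on CD and rose 4.69-fold. Cd209b, a lectin of lymph node and spleen macrophages, had levels of 0.23 on HFD+Ex, 0.64 on HFD+PP, −1.73 on HFD and 1.501 on CD and rose 3.89-fold. In these 3 genes, as in the summed B cell genes, HFD was the lowest array and CD the highest. The part that lymph node tissue had in them was not tested.

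The 2 that fell were Vsig4, a complement receptor, at −1.90 on HFD+Ex, −1.29 on HFD+PP, −0.19 on HFD and −2.32 on CD, and Folr2, a folate receptor of tissue macrophages, at 2.48 on HFD+Ex, 2.60 on HFD+PP, 3.54 on HFD and 1.71 on CD. Folr2 fell 2.09-fold and came to −0.97 with quantile normalization, just under 2-fold.

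Dendritic cell genes were higher where they changed: 6 of 18 rose and 0 fell, with a median of 0.46. Flt3, the growth factor receptor of dendritic cell precursors, rose 3.17-fold at 0.39 on HFD+Ex, 0.35 on HFD+PP, −1.28 on HFD and 1.55 on CD, and Clec9a, a receptor of cross-presenting dendritic cells, rose 3.07-fold. Of 11 MHC class II genes, 5 rose, of which 4 were set apart; the fifth, the master regulator Ciita, rose 2.05-fold and came to 0.83 log2 with normexp background correction. Of 21 mast cell and eosinophil genes, 3 rose and 2 fell, and among the 15 kept 2 rose and 0 fell. Prg3, a granule protein gene of eosinophils, was at −2.61 on HFD+Ex, −3.17 on HFD+PP and −1.34 on CD and not well above background on HFD, so it rose at least 7.36-fold. The related granule gene Prg2 rose 2.76-fold and Il5ra, a subunit of the interleukin 5 receptor, 2.65-fold, while Siglecf, a lectin of eosinophils, fell 2.21-fold. Prg2 and Siglecf are among the genes set apart. With normexp Prg2, Il5ra and Siglecf were all under 2-fold.

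Of 34 complement and coagulation genes, 8 fell and 0 rose (median −0.25). The receptors for the complement fragments C3a and C5a had levels of −1.42 on HFD+Ex, −1.66 on HFD+PP, 0.72 on HFD and −2.73 on CD for C3ar1, and −1.19 on HFD+Ex, −1.46 on HFD+PP, 0.70 on HFD and −2.44 on CD for C5ar1. They fell 4.43-fold and 3.7-fold. Coagulation factor VII (F7) fell 5.59-fold at −1.69 on HFD+Ex, −1.97 on HFD+PP, 0.80 on HFD and −3.49 on CD, and factor X (F10) fell 2.8-fold. Cfd, which encodes adipsin, a complement protease released by fat cells, was at 0.94 log2, with levels of 8.61 on HFD+Ex, 8.60 on HFD+PP, 7.67 on HFD and 8.66 on CD. The complement proteases C1ra, C1s1 and C2 did not pass 2-fold either, at −0.0019, −0.06 and 0.49 log2. These 4 are named after their values were seen.

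Of 48 lysosome genes, 7 fell and 0 rose (median −0.45). Those that fell included Ctsk, the collagen-cutting cathepsin K, at 2.59 on HFD+Ex, 2.52 on HFD+PP, 4.49 on HFD and 1.35 on CD, and Lipa, the acid lipase that frees fatty acids and cholesterol from engulfed lipid, at 1.83 on HFD+Ex, 1.76 on HFD+PP, 3.36 on HFD and 1.43 on CD. Ctsk fell 3.73-fold and Lipa 2.89-fold. Of the 7, Gusb alone, the enzyme beta-glucuronidase, is not also in the lipid-associated macrophage list, so these counts overlap; it fell 2.13-fold and is named after its value was seen.

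Of 18 genes of sterol export and the LXR receptors, 4 fell and 0 rose (median −0.35). Soat1, which esterifies cholesterol, had levels of −2.06 on HFD+Ex, −2.17 on HFD+PP, −0.50 on HFD and −0.32 on CD and fell 2.93-fold. For Soat1 the high arrays, HFD and CD, shared a slide, so slide and supplement cannot be told apart. Nceh1, which hydrolyses cholesteryl esters, fell 2.46-fold and is also in the lipid-associated macrophage list. Pltp, the phospholipid transfer protein, fell 2.49-fold. Apoc2, the cofactor of lipoprotein lipase, fell 6.71-fold and is among the genes set apart. The exporter Abca1 was at −0.20 log2.

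Among the lipid mediator genes, 1 of 27 rose and 2 fell, where 3.64% of all measured genes rose and 3.77% fell. Hpgds, which makes prostaglandin D2, fell 3.04-fold and thromboxane synthase (Tbxas1) 2.63-fold, at 1.44 on HFD+Ex, 1.31 on HFD+PP, 2.84 on HFD and 0.80 on CD. Pla2g2d, a secreted phospholipase of lymph node dendritic cells, rose 5.14-fold at 2.03 on HFD+Ex, 1.97 on HFD+PP, −0.33 on HFD and 2.82 on CD.

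Of 56 collagen and matrix remodelling genes, 5 fell and 1 rose, and the median was −0.56 log2, against −0.04 for all measured genes. Of the 5 that fell, Mmp12, Spp1 and Mmp13 are also in the lipid-associated macrophage list, so these counts overlap. The chains of fibrillar collagen did not pass 2-fold: Col1a1 was at −0.64 and Col3a1 at −0.68, with Col1a1 levels of 4.87 on HFD+Ex, 4.57 on HFD+PP, 5.51 on HFD and 3.84 on CD. Col8a1, a short-chain collagen, fell 2.97-fold and the gelatinase Mmp2 2.1-fold. Lox, which crosslinks collagen, was at −0.93, and Timp1, an inhibitor of matrix proteases, at −0.61. The 1 member that rose was Mmp9, a gelatinase stored in neutrophil granules, 2.89-fold, or 0.64 log2 with normexp.

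**Figure D3:**
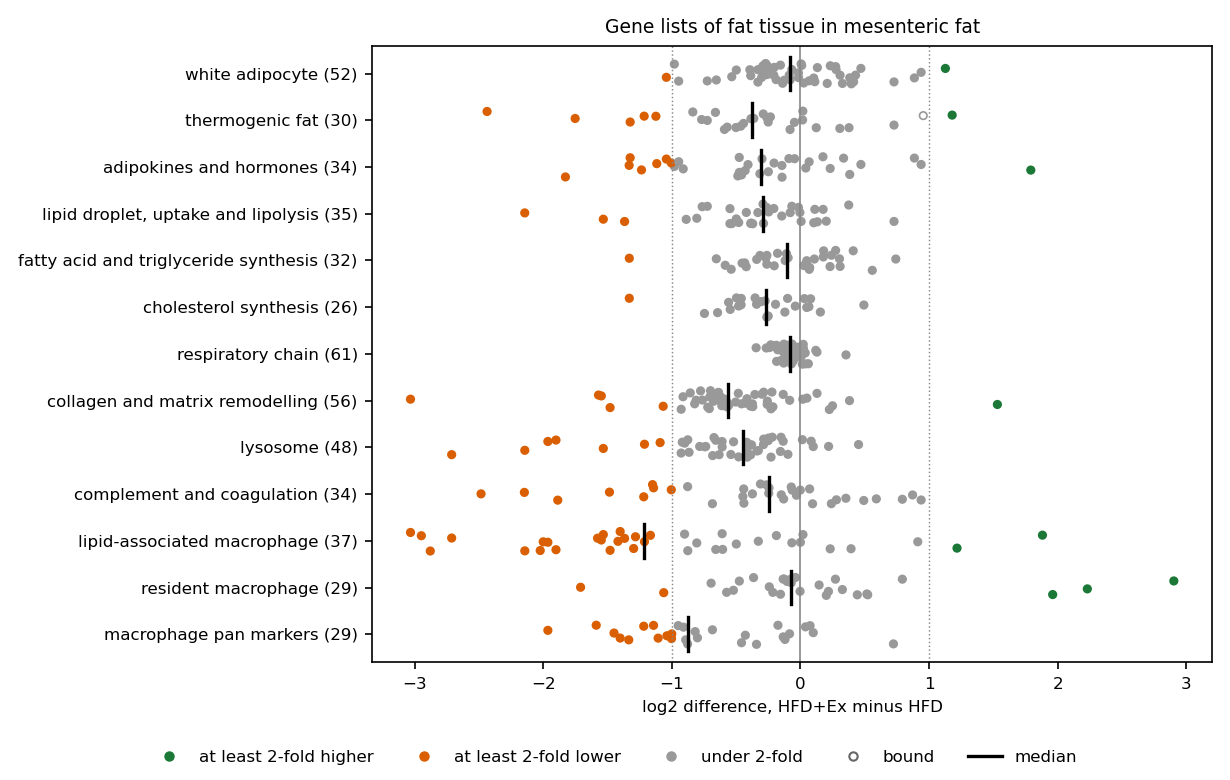
Log2 difference, HFD+Ex minus HFD, for each measured gene (point) of 13 lists of fat tissue, with the number of measured genes in brackets. Black lines are medians, the open point is a bound and dotted lines mark 2-fold; lipid-associated macrophage genes have the lowest median (−1.21) and respiratory chain genes the narrowest range (−0.34 to 0.35).

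Some inflammatory genes were higher with the extract. Of 39 measured inflammatory cytokines and mediators, 9 rose and 3 fell, and the median was 0.07. Of these, 5 that rose and 3 that fell were among the 29 kept genes. Il6, a cytokine of the acute phase response, had levels of −1.67 on HFD+Ex, −4.34 on HFD+PP, −3.96 on HFD and −3.72 on CD and rose 4.91-fold. Il1b, the inflammasome-processed cytokine, had levels of −1.12 on HFD+Ex, −2.64 on HFD+PP, −3.65 on HFD and −1.91 on CD and rose 5.75-fold; its levels in gut put it among the genes set apart. Il12a, a subunit of interleukin 12, was at −2.23 on HFD+Ex and −5.54 on HFD+PP and not well above background on HFD and CD, so it rose at least 10.1-fold. HFD+Ex was the highest of the 4 arrays for each of these 3 genes. The other 6 that rose, among them interferon gamma (Ifng) and the alarmin interleukin 33 (Il33, set apart), were at 1.02 to 1.29 log2, the highest of them, Osm, as a bound. Il33 had levels of 1.75 on HFD+Ex, 1.77 on HFD+PP, 0.64 on HFD and 2.09 on CD. Osm had levels of −4.02 on HFD+Ex, −4.23 on HFD+PP and −3.69 on CD and was not well above background on HFD. In Il33 and Osm CD was the highest array and HFD the lowest, as in the summed B cell genes. Osm and Ifng are named after their values were seen.

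Other genes stood highest on HFD+Ex too. Among kept genes, 25 (0.173%) were at least 2-fold higher on HFD+Ex than on each of the other 3 arrays, and 7 (0.0485%) at least 2-fold lower than on each. Of the 25, 15 were not well above background on HFD and have bounds only, many of them genes with no list here, such as Nme8, Sult2a7 and Obox1. The 25 also included Il6, Il12a and S100a9. Nme8, Sult2a7, Obox1, Ptx3, Has1 and Cyp1a1 were picked after their values were seen. Ptx3, a long pentraxin of the acute phase, had levels of −1.01 on HFD+Ex, −3.35 on HFD+PP, −2.34 on HFD and −3.97 on CD. Has1, a hyaluronan synthase, had levels of −2.29 on HFD+Ex, −3.75 on HFD+PP, −3.55 on HFD and −4.39 on CD. Cyp1a1, the enzyme induced through the aryl hydrocarbon receptor, had levels of −1.95 on HFD+Ex, −3.43 on HFD+PP, −3.25 on HFD and −3.77 on CD. These 3 rose 2.51-fold, 2.39-fold and 2.46-fold.

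Neutrophil genes held 5 that rose and 0 that fell of 21 measured (median 0.48). S100a9, a calcium-binding protein of neutrophils, had levels of 2.12 on HFD+Ex, 0.24 on HFD+PP, −0.28 on HFD and 0.03 on CD and rose 5.27-fold. S100a8, with which its protein forms a complex, was at 1.03 on HFD+Ex, 0.17 on HFD+PP, 1.35 on HFD and −0.82 on CD, a difference of −0.32, so the pair did not move together. Cxcr2, the neutrophil chemokine receptor, had levels of −2.15 on HFD+Ex, −2.48 on HFD+PP, −5.06 on HFD and −1.19 on CD and rose 7.52-fold; here HFD was the low array and CD the highest. The decoy receptor Il1r2 rose 2.51-fold, and 0.62 log2 with normexp.

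Some ligands of Cxcr2 were higher as well. Cxcl5 had levels of −1.60 on HFD+Ex, −3.61 on HFD+PP, −3.92 on HFD and −3.21 on CD and rose 5.01-fold, and is among the genes set apart. Cxcl3 was well above background on HFD+Ex only, at −4.17, and rose at least 2.64-fold, which came to 0.51 log2 with normexp. Cxcl2 was at 0.18, and is named after its value was seen. Over the 31 measured chemokine genes, 6 rose and 4 fell (median 0.06), and 4 of the 6 were set apart.

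The chemokine genes that fell included Ccl2, which attracts monocytes. Ccl2 had levels of 2.86 on HFD+Ex, 2.18 on HFD+PP, 3.96 on HFD and 1.15 on CD and fell 2.14-fold. Ccl3, also in the lipid-associated macrophage list, fell as well, at −1.17 log2. The related Ccl7, Ccl8 and Ccl12 did not pass 2-fold, at −0.54, −0.82 and 0.18. These 4 are named after their values were seen. Il1rn, the antagonist of the interleukin 1 receptor, had levels of −4.77 on HFD+Ex, −4.72 on HFD+PP and −2.52 on HFD, was not well above background on CD, and fell 4.76-fold, or −0.91 log2 with normexp. Tnf was at 0.46, Ptgs2, the inducible cyclooxygenase, at 0.18, Nos2, the inducible nitric oxide synthase, at −0.25 and Saa3, the serum amyloid of fat tissue, at −0.40. Of 37 interferon response genes, 0 rose and 0 fell, against 3.64% and 3.77% of all measured genes.

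**Figure D4:**
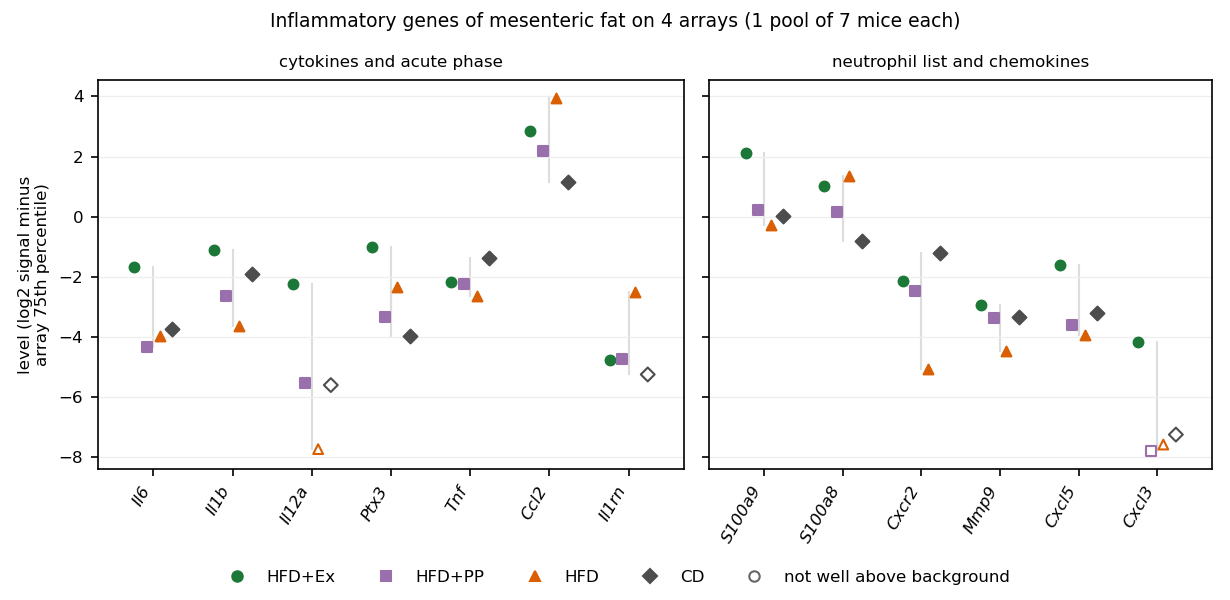
Levels (log2 signal minus the 75th percentile of the array) of inflammatory genes on the HFD+Ex, HFD+PP, HFD and CD arrays, 1 array each, with open symbols where the gene was not well above background and grey lines spanning the 4 arrays. HFD+Ex is the highest array for Il6, Il1b, Il12a, Ptx3, S100a9, Mmp9, Cxcl5 and Cxcl3, while for S100a8, Ccl2 and Il1rn HFD is the highest.

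Of the 30 kept early response genes, 3 fell and 0 rose. Atf3, a transcription factor of the stress response, had levels of 0.69 on HFD+Ex, 0.54 on HFD+PP, 3.19 on HFD and −0.49 on CD and fell 5.64-fold. Egr2, a zinc finger factor induced in macrophages, fell 2.59-fold, and Fos, a part of the AP-1 factor and among the genes set apart, fell 3.91-fold. In the whole list of 36 immediate early genes, 1 rose and 5 fell (median −0.26). Heat shock genes held 0 of 29 past 2-fold, where 3.64% of all measured genes rose and 3.77% fell.

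Of 52 white adipocyte genes, all among those kept, 1 rose and 1 fell, near the 2.28% and 2.41% of all kept genes, with a median of −0.08. Their summed signal was 4729 on HFD+Ex, 4826 on HFD+PP, 4637 on HFD and 3801 on CD. Pck1, which makes glycerol phosphate for triglyceride storage, had levels of 6.91 on HFD+Ex, 6.91 on HFD+PP, 5.78 on HFD and 6.74 on CD and rose 2.18-fold. Mest, which rises as fat cells expand, had levels of 4.37 on HFD+Ex, 4.21 on HFD+PP, 5.42 on HFD and 2.09 on CD and fell 2.06-fold, or −0.98 log2 with the authors' values. Leptin (Lep), whose level follows fat cell size, had levels of 3.60 on HFD+Ex, 3.93 on HFD+PP, 4.58 on HFD and 1.63 on CD, a difference of −0.98 that stayed under 2-fold. The fat cell regulator Pparg was at −0.16, the insulin-regulated glucose transporter Slc2a4 at 0.21 and the lipases Lipe and Pnpla2 at −0.02 and 0.11.

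Of 34 adipokine and hormone genes, 7 fell and 1 rose (median −0.31). Gdf15, a stress-induced hormone, had levels of −0.91 on HFD+Ex, −1.28 on HFD+PP, 0.42 on HFD and −1.13 on CD and fell 2.52-fold. Metrnl, a secreted factor of fat and macrophages, had levels of 1.96 on HFD+Ex, 1.65 on HFD+PP, 3.19 on HFD and 0.97 on CD and fell 2.36-fold. Fgf21, a hormone of the fasting response, fell 2.5-fold at −4.01 on HFD+Ex, −2.67 on HFD+PP, −2.69 on HFD and −3.94 on CD, and −0.76 log2 with normexp. For Fgf21, as for the summed intestinal epithelium genes, HFD and HFD+PP were the high arrays, and the part of gut tissue was not tested. Agt, the precursor of angiotensin, rose 3.46-fold at 0.56 on HFD+Ex, 0.48 on HFD+PP, −1.23 on HFD and −0.17 on CD, and is among the genes set apart.

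Thermogenic genes, which burn fuel as heat in brown and beige fat, held 5 that fell and 1 that rose of 30 measured (median −0.37). Slc27a2, a fatty acid transporter and activating enzyme that liver and kidney also express, had levels of −5.21 on HFD+Ex, −2.64 on HFD+PP, −2.78 on HFD and −4.96 on CD and fell 5.41-fold. For this gene too HFD and HFD+PP were the high arrays, as for the summed intestinal epithelium genes, and the part of gut tissue was not tested. Dio2, which activates thyroid hormone, fell 2.32-fold, and −0.71 log2 with normexp. Otop1, a proton channel, fell 3.37-fold on the probe used, and its probes ran from −1.75 to −0.22. Tbx1, a marker of beige fat cells, rose 2.26-fold. Ucp1, the uncoupling protein, had levels of −3.40 on HFD+Ex, 0.01 on HFD+PP, −2.74 on HFD and −3.21 on CD, with HFD+PP as the high array, and did not pass 2-fold between HFD+Ex and HFD.

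Of 32 genes of fatty acid and triglyceride synthesis, 0 rose and 1 fell (median −0.10), near the 3.64% and 3.77% of all measured genes. Fatty acid synthase (Fasn) had levels of 2.25 on HFD+Ex, 2.09 on HFD+PP, 1.69 on HFD and 4.79 on CD, a difference of 0.56, so HFD+Ex was nearer to HFD than to CD. Acly, which supplies acetyl-CoA for it, stood at 4.91 on HFD+Ex, 4.87 on HFD+PP, 4.88 on HFD and 7.09 on CD, and the desaturase Scd1 was at 0.18. Insig1, which holds the sterol sensor in the endoplasmic reticulum, fell 2.52-fold at −0.22 on HFD+Ex, −0.14 on HFD+PP, 1.11 on HFD and 0.18 on CD and was the 1 member that fell in this list and in the 26 cholesterol synthesis genes (median −0.27).

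Of 35 genes of lipid droplets, uptake and lipolysis, 3 fell and 0 rose (median −0.29), among them Plin2, the droplet coat of macrophages and many other cells, at 5.46 on HFD+Ex, 5.36 on HFD+PP, 6.82 on HFD and 5.15 on CD. Plin2 and Lipa both fell and are also in the lipid-associated macrophage list. Of 42 genes of fatty acid oxidation, 0 rose and 1 fell, Fgf21, where 3.64% of all measured genes rose and 3.77% fell. The 61 respiratory chain genes ran from −0.34 to 0.35 log2, with 0 past 2-fold and a median of −0.08. In the ceramide and sphingolipid list, 0 of 31 rose and 3 fell (median −0.25). Those that fell were the desaturase Degs2 at −1.80 log2, the ceramidase Acer1 by at least 2.46-fold and the ceramide synthase Cers3 by at least 2.46-fold, of which Degs2 and Acer1 were set apart as gut-typical. Among the 23 kept, 1 fell. With normexp Acer1 and Cers3 were under 2-fold. Sptlc2, a subunit of the first enzyme of ceramide synthesis, was at −0.39, Cers6, a ceramide synthase, at −0.77 and Smpd3, a neutral sphingomyelinase, at −0.23.

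Of 43 insulin action and glucose genes, 1 rose and 3 fell, Hk3, a hexokinase of white blood cells, falling 2.69-fold. Of 28 genes of retinoid and steroid handling, 4 rose and 0 fell, and among the 24 kept 2 rose and 0 fell. Cyp2e1, an oxidase of ethanol and ketones, had levels of 6.08 on HFD+Ex, 5.95 on HFD+PP, 4.46 on HFD and 6.69 on CD and rose 3.08-fold. Stra6, a retinol transporter and among the genes set apart, rose 3.89-fold, and 0.61 log2 with normexp. Circadian clock and cell cycle genes held 0 of 18 and 0 of 38 past 2-fold, and 0 of 22 endothelial genes passed it. Over all measured genes 3.64% rose and 3.77% fell.

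Marco and Cxcr2 were among the 15 kept genes with the largest measured rises. Xlr5c and Xlr5b, a pair of near-identical X-linked genes of lymphocytes whose probes may read each other, rose 10.95-fold and 9.17-fold, with Xlr5c levels of −0.91 on HFD+Ex, −0.26 on HFD+PP, −4.36 on HFD and 0.17 on CD. Amy1, the salivary and liver amylase, rose 6.33-fold at 7.21 on HFD+Ex, 8.01 on HFD+PP, 4.55 on HFD and 7.77 on CD; it is a close copy of the pancreatic amylase genes, which were set apart. Serpina10, an inhibitor of factor X, rose 5.86-fold, and Acsm3, an acyl-CoA synthetase, 7.15-fold. Zfp831, Crip3, Gm11346, Tspan10, Dscaml1, Mirt1 and Rab26 rose too, between 2.45 and 2.88 log2. Dscaml1 and Rab26 were under 2-fold with normexp. Zfp831 and Mirt1 were under 2-fold with the median over their probes. For Xlr5c as for the summed B cell genes, HFD was the lowest and CD the highest array.

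The 15 largest falls among kept genes held Itgad, Mmp12, Gpnmb, Trem2, Atp6v0d2 and Atf3, described above. Myh15, a slow myosin gene, had levels of −4.33 on HFD+Ex, −4.31 on HFD+PP, −0.70 on HFD and −4.85 on CD and fell 12.3-fold. Vsig8, an immunoglobulin domain gene, had levels of 1.12 on HFD+Ex, 0.92 on HFD+PP, 3.95 on HFD and −1.09 on CD and fell 7.14-fold. Dhrs9, a retinol dehydrogenase that macrophages express, fell 5.7-fold, Plcxd3, a phospholipase domain gene, 7.21-fold and the glutamate receptor gene Gria1 8.24-fold. Cyp2b10, which the receptor CAR induces, had levels of −3.89 on HFD+Ex, −2.61 on HFD+PP, −1.11 on HFD and −3.69 on CD and fell 6.85-fold. Dppa3, Lyzl4 and AU022793 fell by 2.50 to 3.05 on the log2 scale. In all 15 HFD was the highest array, and CD was the lowest except for Gria1 and Cyp2b10.

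The largest bounds among kept genes were these. The olfactory receptor gene Olfr1121 was at 0.68 on HFD+Ex and not well above background on HFD+PP, HFD and CD, so it rose at least 75.97-fold. Mlc1, a membrane protein of glia, rose at least 11.54-fold, and was well above background on HFD+Ex, HFD+PP and CD. Gpr50, a receptor related to those for melatonin, Tcaf3 and Gm1553 were well above background on HFD only and fell at least 18.5-fold, 18.1-fold and 16.5-fold. None of these 5 genes had a probe above background on both arrays.

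The 7 genes lower on HFD+Ex than on each other array were Acox2, H2-T3, Mug2, Mup18, Mup19, Mup5 and Slc2a5, named after their values were seen. Acox2, a peroxisomal oxidase of bile acid intermediates, had levels of −5.05 on HFD+Ex, −3.98 on HFD+PP, −2.59 on HFD and −2.55 on CD. Slc2a5, the fructose transporter, had levels of −3.82 on HFD+Ex, −1.96 on HFD+PP, −2.08 on HFD and 0.61 on CD. The 3 major urinary protein genes are close copies of each other, and Mup19 had levels of −0.69 on HFD+Ex, 2.20 on HFD+PP, 0.55 on HFD and 0.43 on CD.

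HFD+Ex and HFD+PP lay on the same slide, so values between them do not carry the slide. Among 14287 kept genes measured there, 81 (0.567%) were at least 2-fold higher on HFD+Ex and 70 (0.49%) at least 2-fold lower, and over all 16724 genes 109 (0.652%) were higher and 414 (2.48%) lower. In the lipid-associated macrophage list 1 of 37 genes was higher and 0 lower, with a median of 0.07 and a range from −0.11 to 1.28, and the gene higher was Spp1. In the inflammatory list 3 of 40 were higher and 1 lower. Those higher were Il12a by 3.31, Il6 by 2.67 and Il1b by 1.51 log2. S100a9 was higher by 1.88 log2. Of the 30 B cell genes and 41 T cell and NK cell genes, 0 passed 2-fold between these arrays. Of the intestinal epithelium genes 51 of 63 were lower on HFD+Ex, and of the exocrine pancreas genes 47 of 50.

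The lipid-associated macrophage list was set beside the same diets in the other tissues. In brown fat 15 of 37 genes fell and 0 rose (median −0.81), where 3.25% of 15964 measured genes fell and 0.777% rose. General macrophage markers there held 15 of 29 that fell and 0 that rose (median −1.05). Resident macrophage genes there held 4 of 29 that fell and 0 that rose (median −0.61). The brown fat arrays of HFD+Ex and HFD lay on different slides. In liver 11 of 36 fell and 0 rose (median −0.38), where 1.49% of 14975 genes fell and 1.46% rose, and both liver arrays lay on one slide. In ileum 2 of 35 fell and 0 rose (median −0.23), where 0.701% of 16259 genes fell and 1.11% rose. In colon 1 of 36 fell and 2 rose (median 0.05), where 0.396% of 16909 genes fell and 1.14% rose. Trem2 was at −1.84 log2 in brown fat, −1.33 in liver, −0.85 in ileum and 0.87 in colon.

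**Figure D5:**
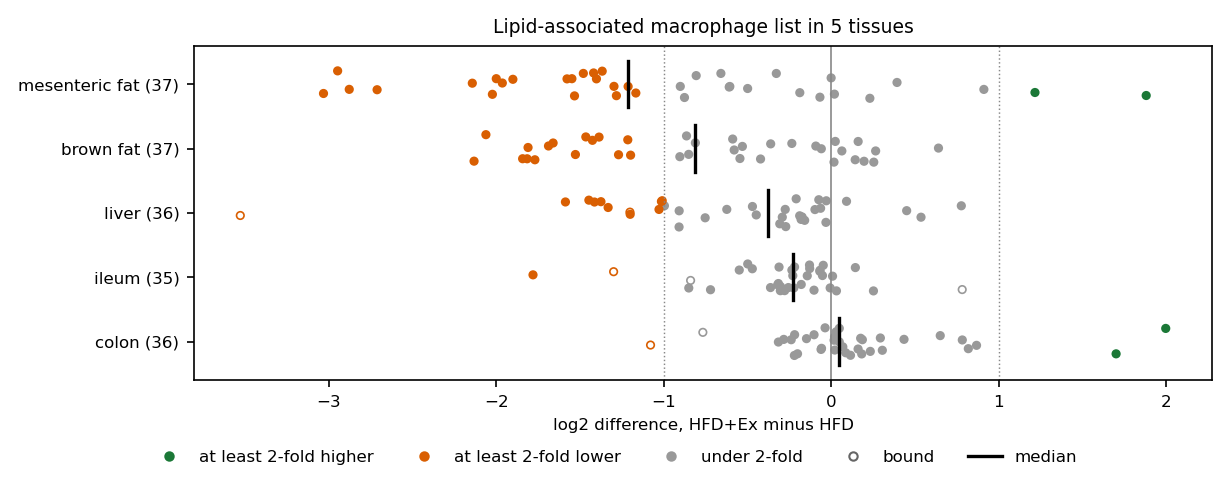
Log2 difference, HFD+Ex minus HFD, for each measured gene (point) of the lipid-associated macrophage list in 5 tissues, with the number of measured genes in brackets. Black lines are medians, open points are bounds and dotted lines mark 2-fold; the medians run from −1.21 in mesenteric fat and −0.81 in brown fat to 0.05 in colon.

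The inflammatory genes were set beside the other tissues in the same way. Il1b was at 0.70 log2 in ileum, −0.23 in liver and −0.48 in colon, and at least 0.31 log2 higher in brown fat. S100a9 was at 0.09 in brown fat, −0.86 in liver, 0.48 in ileum and 0.38 in colon. Of the list of inflammatory mediators, 0 of 29 genes rose and 2 fell in brown fat, 0 of 34 rose and 2 fell in liver, 0 of 37 rose and 1 fell in ileum, and 0 of 34 rose and 0 fell in colon. Counts of 0 that rose are near the shares over all genes in these tissues. Whether these tissues differ from mesenteric fat could not be tested with 1 array each. Of the exocrine pancreas list, 8 of 42 genes rose and 0 fell in colon (median 0.14), 4 of the 8 as bounds, 1 of 33 rose and 0 fell in ileum (median 0.08), 2 of 21 rose and 1 fell in liver (median 0.10), and 0 of 27 rose and 2 fell in brown fat (median 0.14).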

How the data were processed

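RNA pooled from 7 mice per diet was hybridised to 1-colour Agilent mouse arrays. The submitters' processing notes name Agilent Feature Extraction 11.5.1.1. The deposited intensity of each spot is the processed signal, background-subtracted by that software per the file headers. The deposited value table of the authors is linear and not centred: each column is the processed signal times 1 factor, whose purpose is not given in the sources used here. Its column medians were 98.5 for HFD+Ex, 102.3 for HFD+PP, 87.9 for HFD and 103.6 for CD.

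From these deposited intensities, outlier and control spots were left out, spots of a probe were averaged, and the 75th percentile of the array was subtracted on the log2 scale. Probes were named through RefSeq accessions on GRCm38.p6, where 28026 of 55681 probes matched. Each gene took the probe whose mean over 20 arrays was highest. Where a gene was not well above background, it was set to that array's dimmest probe passing that call, or to its own signal if higher. Python 3.11.15, pandas 2.3.3, R 4.3.3 and limma 3.58.1 were used, and the scripts were tested on simulated data.

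With 1 array per diet no test was made. The genes named are the 15 highest and 15 lowest among kept genes, the 3 largest bounds per direction, the 5 highest and lowest set apart, up to 6 per list past 2-fold, and a list of 49 genes given whatever their values. Members and lists were chosen with earlier results of these data known. Of 1422 list genes, 40 had no match. Alternatives were normexp background correction, other scalings, other filters on dim probes, other probe choices and other limits for the genes set apart. Normexp used the median spot signal in place of the mean signal, a column not used here. Other diets and tissues enter only as levels or differences set beside these.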

Additional observations from a re-analysis of the deposited data

Results flagged for a closer look

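The gene lists moved apart between tissues in 2 cases, where at least 3 members rose and 0 fell in mesenteric fat while at least 3 fell and 0 rose in another tissue. Of the B cell and plasma cell genes, 24 of 30 rose in mesenteric fat (median 2.56) and 5 of 22 fell in brown fat (median −0.55), a difference between medians of 3.114 log2. Of the neutrophil genes, 5 of 21 rose in mesenteric fat (median 0.48) and 3 of 20 fell in colon (median −0.09), a difference of 0.5728 log2. Over all measured genes 3.64% rose in mesenteric fat, 3.25% fell in brown fat and 0.396% fell in colon. Of the 5 neutrophil genes that rose, 4 were among the kept genes. With 1 array per tissue and diet, neither difference between medians was tested. The HFD+Ex and HFD arrays of brown fat lay on different slides, and those of colon on one slide.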

How the results depend on the processing

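With normexp background correction 323 genes rose and 328 fell over all genes and 119 rose and 164 fell among kept genes, and the lipid-associated macrophage median was −0.92 log2. Without a filter on dim probes 1166 rose and 1003 fell, or 829 and 666 among kept genes; here the alternative tests 21141 genes. The other scalings, filters and probe choices left these counts within 1.5 times: kept genes that rose ran from 233 with a limit of 1 log2 for gut-typical genes to 382 with the authors' values, and those that fell from 253 on both arrays to 401 with quantile normalization. Setting further lymphocyte and lymph node genes apart, chosen after seeing the data, gave 293 that rose and 347 that fell among 14374 genes. Scaling on bright probes moved the median of kept genes to 0.02 log2. Of 187 named genes past 2-fold, 144 remained past it in the same direction with normexp, 182 with bright-probe scaling, 182 with the authors' values, 184 with quantile normalization and 181 with the median over probes, and 0 changed sign. The median of the inflammatory list lay just below 0 without the filter and above 0 otherwise. No paired analysis was possible because each diet had 1 array. The limits are 1 pool per diet, a slide that changes with the supplement, probes of close gene copies, and dim probes, whose differences normexp shrinks most; the spread between mice, and the parts that pancreas, lymph node and gut tissue had in other results, were not tested.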
